A study of Mus musculus with 5 samples.

Results

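Bone marrow cells of mice whose Ikaros protein carries a mutant zinc finger 1 (dF1) were compared with the same sorted fraction of wild-type mice (wt), transcript by transcript. The transcripts compared were all those with a gene symbol and a mean of at least 5 RPKM (the reads of a transcript divided by its length and by the size of the library) over the 2 wt and 2 dF1 libraries. This left 8553 transcripts of 8128 symbols, or 32.2% of the 26531 transcripts of 22098 symbols in the deposited table. The limit fell in a dense range, since 536 transcripts had a mean from 5 to 6 RPKM and 593 a mean from 4 to 5. The transcripts of Ccnc, Acat2 and another transcript of Myc (4.6 and 2.5 RPKM in wt against 4.8 and 8.1 in dF1) lay just inside it, and those of Pstk (6.2 and 4.4 in wt against 4.2 and 5.1 in dF1), Zfp295 and Slc20a2 just outside. The study asked which blood cell lineages Ikaros affects. All 4 libraries came from C57BL/6 mice 6 to 7 weeks old, and none of the mice is described as treated. The mutant genotype is Ikaros_ZnF1-/-, how the allele was made is not given in the sources used here, no other allele is named for either group, and the sort was Hardy fraction A without depletion of other lineages. The dF1 libraries are described as biological replicates and the wt libraries are not, and whether these came from separate mice is not stated, so the p-values measure no more than how far these 4 libraries vary.

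Ikaros, encoded by Ikzf1, is a DNA-binding zinc finger protein that is needed to make B cells and several other lymphoid cells. Its N-terminal fingers bind DNA at sites built on the core GGGAA, and its C-terminal fingers join it to itself and to its relatives Helios and Aiolos. Of the DNA-binding fingers, the middle ones make most of the contact with the core, and fingers 1 and 4 adjust which sites are bound. Ikaros works with chromatin complexes such as NuRD and can lower or raise the genes it binds, and it is present in lymphoid progenitors, plasmacytoid dendritic cells (pDCs), NK cells and T cells as well as in B cells.

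The cells are labelled pro-B cells, but the strongest markers were those of pDCs, the interferon-producing dendritic cells that share surface markers with early B cells. The 24 pDC markers summed to 7729.1 and 8531.9 RPKM in wt against 7144.4 and 7466.1 in dF1, against 979.3 and 663 in wt against 750.6 and 716.5 in dF1 for 25 early B lineage markers. The B cell factors Ebf1 (13 and 7.4 RPKM in wt against 7.2 and 7.4 in dF1) and Pax5 (7.8 and 5.4 in wt, 6 and 9.4 in dF1) were present but low. The 25 NK cell markers in the table summed to between 1495.3 and 3621 RPKM and the 22 T cell markers to between 595.5 and 1285.6, with wt replicate 2 lowest in both. The fraction is therefore called fraction A here, and not pro-B cells. In such bulk samples, fewer cells of a type and less RNA per cell cannot be told apart.

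**Figure D1:**
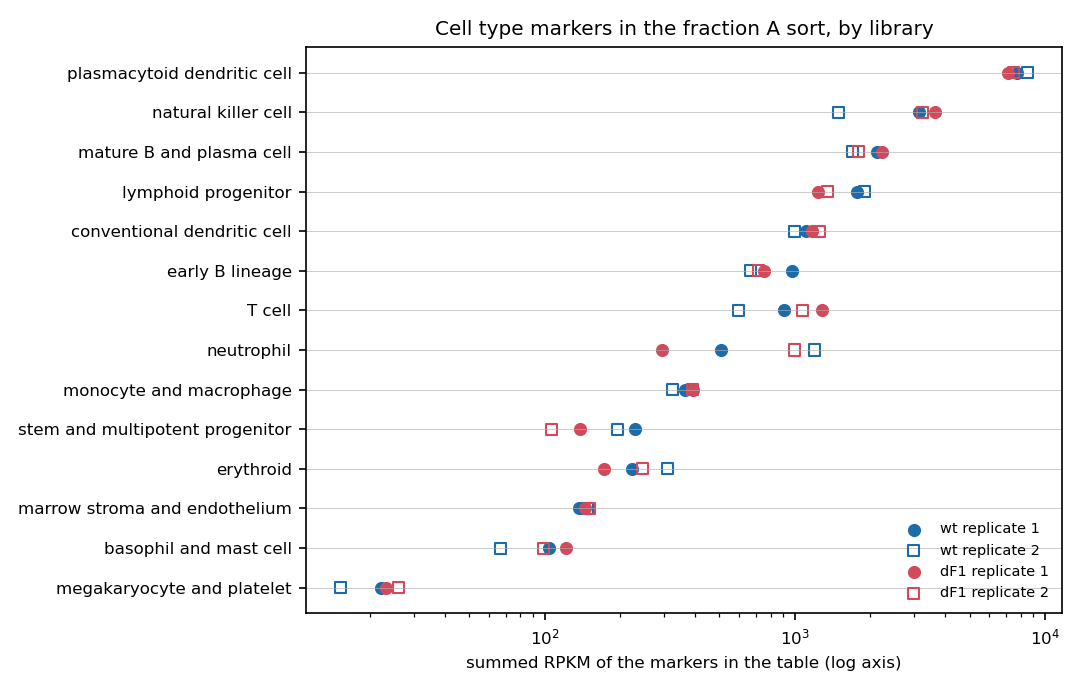
Summed RPKM (log axis) of each list of cell type markers in the 4 libraries, wt in blue and dF1 in red, replicate 1 filled and replicate 2 open. The pDC markers were highest in all 4 libraries, wt replicate 2 was lowest for NK cell markers at 1495.3 RPKM, and the neutrophil markers were lower in replicate 1 of both groups (508.3 in wt and 294.3 in dF1) than in replicate 2 (1201.4 and 996.8).

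The libraries were alike in size on the deposited scale. RPKM summed to between 286080 and 307910 and 11667 to 11887 transcripts reached 1 RPKM. Their read depth is unknown. Over the 8553 transcripts, Pearson's r of log2(RPKM + 1) was 0.965 for the wt pair, 0.973 for the dF1 pair and 0.947 to 0.977 for pairs across groups. The wt libraries differed from each other by at least 1 on the log2 scale for 173 transcripts (2.02%), the dF1 libraries for 63 (0.737%) and the group means for 86 (1.01%). The wt pair was thus less alike than the dF1 pair. Xist was at 77.7, 83 and 93.2 RPKM in the wt libraries and dF1 replicate 1 and listed at 0 in dF1 replicate 2, and Eif2s3y, a gene of the Y chromosome, reached 37.5 RPKM in that library and was listed at 0 in the others, so one dF1 library was female and the other male by these genes. The part of sex in the differences was not tested.

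Few transcripts stood clear of the spread between replicates. On log2(RPKM + 1), with limma's moderated test, 2 libraries against 2, two-sided and with Benjamini-Hochberg adjustment over all 8553, 27 transcripts had an adjusted p under 0.05. These are referred to as called. They were 0.316% of all tested, with 14 higher in dF1 (0.164%) and 13 lower (0.152%), of which 25 were protein coding and 2 were small RNAs. At an unadjusted p under 0.05, limma gave 609 transcripts (7.12%), 308 higher (3.6%) and 301 lower (3.52%). The directions were close to even, with 4694 transcripts (54.9%) above 0 and 3850 (45%) below, and a median difference of 0.02. Both dF1 libraries lay above both wt libraries for 1527 transcripts (17.9%) and below them for 1435 (16.8%), so that the groups did not overlap for 2962 (34.6%). Where a difference of at least 1 on the log2 scale was also asked, 39 transcripts were higher (0.456%) and 39 lower (0.456%). An exact permutation test of 2 libraries against 2 cannot go below p = 0.333, so none is given for single genes.

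The calls lay close to the threshold, with adjusted p from 0.0166 to 0.0489, and several settings ended them. With a mean of at least 1 RPKM instead of 5, limma called 0 transcripts (876 at an unadjusted p under 0.05) and the adjusted p of the 27 lay between 0.0588 and 0.151. Centring each library on its median also left 0 called (665 unadjusted, adjusted p of the 27 from 0.0568 to 0.13), and quantile normalization left 4. Leaving out wt replicate 1, wt replicate 2 or dF1 replicate 2 left 0 called (1176, 334 and 324 unadjusted), and leaving out dF1 replicate 1 left 2, neither among the 27. In each of these settings all 27 kept their direction and an unadjusted p under 0.05.

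**Figure D2:**
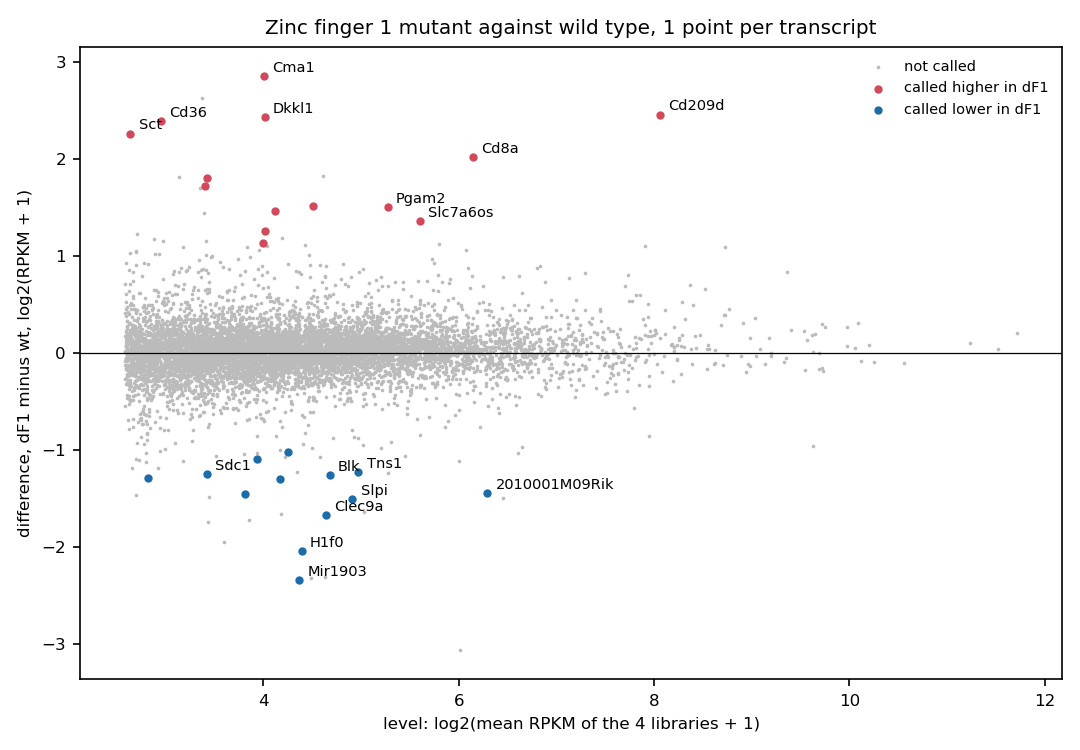
Difference between dF1 and wt on log2(RPKM + 1) (vertical axis) against level, log2 of the mean RPKM of the 4 libraries + 1 (horizontal axis), for the 8553 transcripts. Red points are the 14 called higher and blue points the 13 called lower, which spread over low and high levels, and the grey points past them are transcripts whose replicates differed more.

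Among the called genes, some B lineage and plasma cell genes were on the lower side. Other genes of these kinds did not share this order, and Cd79a and Cd79b lay above wt in both dF1 libraries. Of 23 early B lineage genes compared, 7 had differences above 0 and 16 below. Of 11 mature B and plasma cell genes, 5 were above 0 and 6 below. Blk, a Src family kinase of the B lineage that acts with the pre-B cell receptor, was at 35.8 and 34.5 RPKM in wt against 14.4 and 13.8 in dF1 (difference -1.26, SE 0.13, limma adjusted p = 0.0256). The wt libraries were nearly equal, as were the dF1 libraries, and the groups stood far apart. Sdc1, which encodes the surface proteoglycan CD138 of plasma cells and some pre-B cells, was at 13.8 and 14.3 RPKM in wt against 5.5 and 5.2 in dF1 (-1.25, SE 0.15, limma adjusted p = 0.033). The gene 2010001M09Rik, now named Mzb1, encodes an endoplasmic reticulum protein that aids antibody folding in B cells and is also made in pDCs. It was at 136.8 and 91.9 RPKM in wt against 41 and 40 in dF1 (-1.45, SE 0.20, limma adjusted p = 0.0489). Its wt libraries were less alike than those of Blk and Sdc1, and both lay above both dF1 libraries. Cd22, an inhibitory receptor of the B cell receptor, had the same order without passing, at 15.9 and 23.4 RPKM in wt against 8.8 and 9.1 in dF1 (-1.03, limma adjusted p = 0.157).

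H1f0 had the smallest p of all. It encodes H1.0, a linker histone that builds up in cells that have stopped dividing, and was at 35.9 and 29.7 RPKM in wt against 7.6 and 6.8 in dF1 (-2.04, SE 0.15, limma adjusted p = 0.0166). The wt mean was 4.56 times the dF1 mean. Of the 7 linker histones listed, Hist1h1c was the other one above the 5 RPKM limit, at 7.4 and 4.9 RPKM in wt against 4.7 and 4.8 in dF1. The dF1 mean of Hist1h1c was 4.75 RPKM, so it was above the limit only through its wt level. Clec9a, a lectin that detects dead cells and is used as a marker of cross-presenting dendritic cells and of pDCs in mice, was at 36.5 and 37.4 RPKM in wt against 11.3 and 10.5 in dF1 (-1.67, SE 0.13, limma adjusted p = 0.0166). Its replicates were nearly identical in each group. Xcr1 and Batf3, which mark the same cross-presenting cells, were at 0.6 RPKM or less in every library. Nrp1, a co-receptor for semaphorins and VEGF, was at 25.5 and 23.5 RPKM in wt against 8.1 and 10.7 in dF1 (-1.30, limma adjusted p = 0.0369). The microRNA gene Mir1903 lies within Nrp1 and was also called lower, at 23.6 and 43.9 RPKM in wt against 4.9 and 6.3 in dF1 (-2.34, limma adjusted p = 0.033). Reads of the one cannot be told apart from reads of the other.

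The remaining genes called lower have varied roles. Slpi, a secreted inhibitor of neutrophil proteases, was at 44.3 and 42.3 RPKM in wt against 12.1 and 17.6 in dF1 (-1.50, limma adjusted p = 0.0369). Tns1, a tensin that ties integrins to actin, was at 38.9 and 47.2 RPKM in wt against 16.6 and 19 in dF1 (-1.22, limma adjusted p = 0.0369). Inppl1, which encodes SHIP2, a phosphatase of phosphoinositides, was at 19.2 and 20.4 RPKM in wt against 9.2 and 8.3 in dF1 (-1.09, limma adjusted p = 0.0369). In all of them both dF1 libraries lay well below both wt libraries. Gpr162, an orphan receptor, was at 16.3 and 23.1 RPKM in wt against 6.6 and 6.3 in dF1 (-1.45, limma adjusted p = 0.0369). Rtn4rl1, a relative of the Nogo receptor, was at 23.2 and 25.8 RPKM in wt against 11.2 and 11.9 in dF1 (-1.02, limma adjusted p = 0.0473). The small nucleolar RNA Snord47 completes the 13, at 9.2 and 8.8 RPKM in wt against 2.8 and 3.4 in dF1 (-1.29, limma adjusted p = 0.0489). Its dF1 mean was 3.1 RPKM, so it was compared only because its wt level was high. It is 66 bases long and the libraries were made from mRNA, and which RNA gave its reads was not tested. In the mouse annotation Clec9a, Tns1, Inppl1 and Slpi overlap other named genes (Clec12b, Rufy4, Phox2a and Mir7678), whose reads cannot be separated without a stated strand.

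On the higher side, Cd8a was among those of smallest p. It encodes the alpha chain of the CD8 co-receptor, found on T cells, on dendritic cells and on some pDCs, and was at 25.6 and 27.8 RPKM in wt against 131 and 94.6 in dF1 (2.02, SE 0.18, limma adjusted p = 0.0194). The dF1 mean was 4.22 times the wt mean and the groups were far apart. Its partner Cd8b1, the beta chain found mainly on T cells, overlapped between groups, at 25.6 and 20.5 RPKM in wt against 29.9 and 15.6 in dF1 (limma adjusted p = 0.978). Cd4, which pDCs also carry, was at 146.3 and 154.1 RPKM in wt against 385.5 and 272.4 in dF1. Both dF1 libraries lay well above both wt libraries, but they differed from each other and Cd4 did not pass (1.10, limma adjusted p = 0.133).

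Cd209d, a lectin of the DC-SIGN family, was the most abundant gene called, at 111 and 57.8 RPKM in wt against 414.1 and 479.4 in dF1 (2.46, SE 0.29, limma adjusted p = 0.033). Its relatives above the limit were Cd209c, at 7.5 and 5.4 RPKM in wt against 12.5 and 14.8 in dF1 (0.99, limma adjusted p = 0.16), and Cd209a, whose groups overlapped at 82.6 and 45.3 in wt against 72 and 68.4 in dF1. These genes have close copies, so how reads were shared among them is uncertain. Cd36, a scavenger receptor for fatty acids and lipoproteins, was at 1.4 and 1.5 RPKM in wt against 14.1 and 10 in dF1 (2.40, SE 0.22, limma adjusted p = 0.0194). The wt mean of Cd36, and likewise of Cma1, Sct, Dkkl1, Basp1 and Ang, was below 5 RPKM, so these genes were compared only because their dF1 level was high. Cd33, a sialic acid receptor of myeloid cells, was at 7.8 and 9.3 RPKM in wt against 20.6 and 23.2 in dF1 (1.26, SE 0.15, limma adjusted p = 0.0351). Cma1, which encodes the mast cell protease chymase, had the widest difference of those called, at 4.2 and 1.8 RPKM in wt against 32.1 and 22.2 in dF1 (2.86, SE 0.31, limma adjusted p = 0.0258). Of the defining basophil and mast cell genes, Fcer1a, Ms4a2 and Cd200r3 were at 0.3 RPKM or less in all 4 libraries, Cpa3 was between 0.4 and 1.3, and Mcpt8 between 0.6 and 6.6.

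Several enzymes were called higher. Ang (angiogenin) and Rnase4 are secreted ribonucleases whose genes overlap and whose reads may be shared. Ang was at 5 and 3 RPKM in wt against 13.9 and 16.5 in dF1 (1.72, limma adjusted p = 0.0373), and Rnase4 at 12.3 and 9.3 in wt against 29.7 and 35.6 in dF1 (1.52, limma adjusted p = 0.033). Pgam2, the muscle form of the glycolytic enzyme phosphoglycerate mutase, was at 17 and 21.4 RPKM in wt against 59.1 and 53.1 in dF1 (1.51, SE 0.16, limma adjusted p = 0.0256). Hsd3b7, an enzyme of bile acid synthesis that also breaks down oxysterol signals, was at 7.9 and 8.6 RPKM in wt against 23.1 and 26 in dF1 (1.46, limma adjusted p = 0.0225). The groups were apart for all of them, by more than either pair of replicates.

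The other genes called higher were Slc7a6os, a relative of a yeast protein that takes RNA polymerase into the nucleus, at 26.8 and 25.7 RPKM in wt against 69.2 and 68.4 in dF1 (1.36, SE 0.13, limma adjusted p = 0.0225), and a group of low genes. The replicates of Slc7a6os were close in both groups. Dkkl1, a secreted relative of the Dickkopf proteins known from sperm, was at 5 and 3.1 RPKM in wt against 21.4 and 31.1 in dF1 (2.43, limma adjusted p = 0.0228). Sct, the precursor of the hormone secretin, was at 1.1 RPKM in both wt libraries and 11.7 and 7 in dF1 (2.26, limma adjusted p = 0.033). Basp1, a membrane protein of the inner cell cortex, was at 3.5 and 3.9 RPKM in wt against 12.2 and 19.4 in dF1 (1.81, limma adjusted p = 0.0369). All 3 were low in wt and varied between the dF1 replicates. Rcn3, a calcium-binding protein of the secretory pathway, was at 9.2 and 8.7 RPKM in wt against 19.6 and 22.3 in dF1 (1.14, limma adjusted p = 0.0369). Vkorc1, the target of warfarin, came next in order of p without passing, at 11.8 and 8.7 RPKM in wt against 23.1 and 25.7 in dF1 (limma adjusted p = 0.0671).

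**Figure D3:**
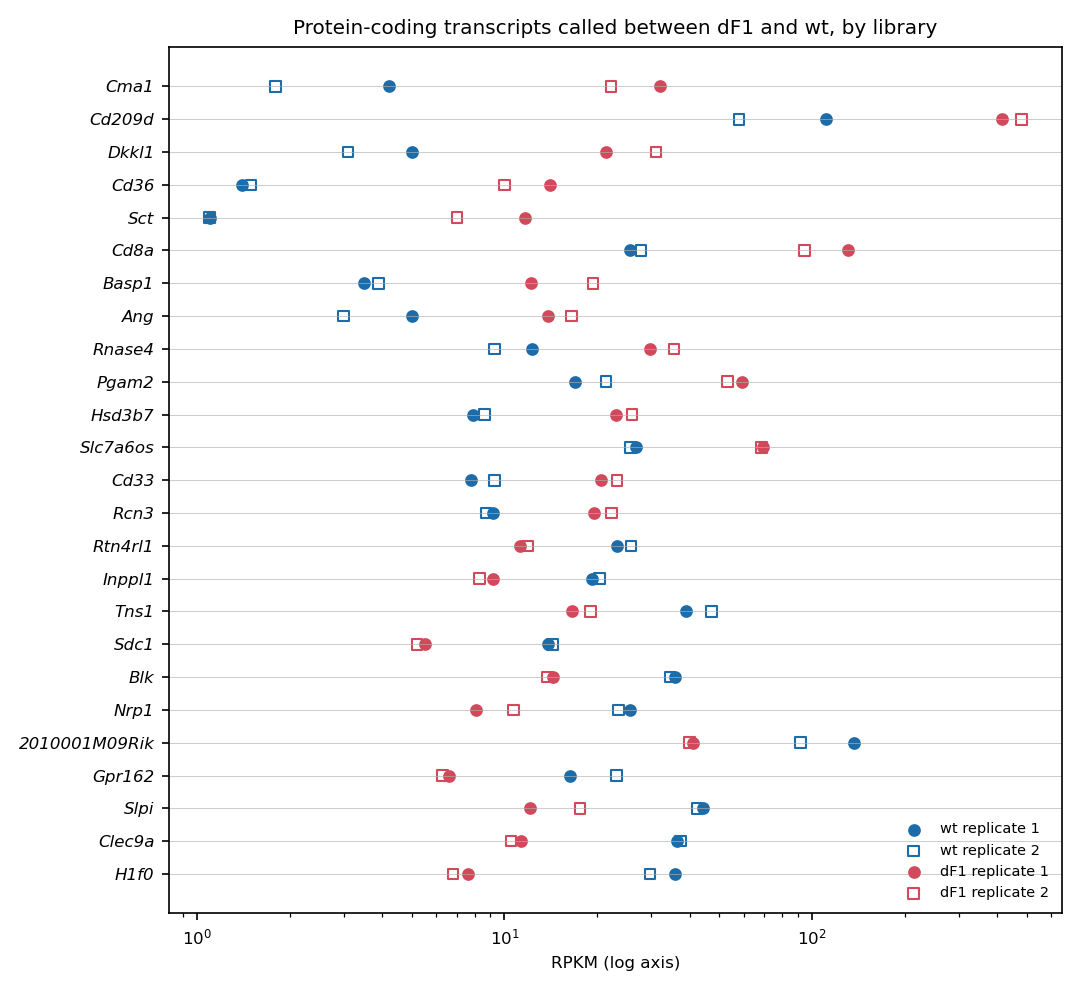
RPKM (log axis) of the 25 protein-coding transcripts called, 1 line each, in the 4 libraries, ordered by difference from Cma1 at the top to H1f0 at the bottom. For all 25 the red dF1 points and the blue wt points do not overlap.

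The promoters of the called genes were searched for the core GGGAA on both strands, where the reverse strand reads TTCCC, in the 250 bases before the start of transcription (RefSeq, GRCm38.p6). Of the 25 coding genes called, 21 had a promoter in the table used, and Blk, Gpr162, Rtn4rl1 and Mzb1 did not. The core was in 8 of 15 windows of the genes called higher (53.3%) and in 4 of 8 of those called lower (50%), against 18477 of 32851 windows (56.2%) over all promoters. The share among called genes was thus close to that of promoters at large. The windows of 4 genes are shown so that promoters with and without the core can be compared. They were taken in order of p in each direction, from genes with 1 window. Bases after the start of the window's gene also had to occur in an annotated transcript of that gene. Whether a transcript starts there was not checked. Clec9a (chr6:129408612-129408861, plus strand) and Sdc1 (chr12:8771146-8771395, plus strand) were lower in dF1, and Cd8a (chr6:71373177-71373426, plus strand) and Slc7a6os (chr8:106210934-106211183, minus strand) were higher. Each is written 5′ to 3′ with matches to the core in capitals, and the gene starts just after the last base.
Clec9a: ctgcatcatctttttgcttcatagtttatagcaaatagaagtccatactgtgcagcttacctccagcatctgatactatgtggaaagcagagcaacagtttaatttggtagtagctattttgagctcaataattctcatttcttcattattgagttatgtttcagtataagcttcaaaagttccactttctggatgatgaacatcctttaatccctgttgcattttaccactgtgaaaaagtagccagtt
Sdc1: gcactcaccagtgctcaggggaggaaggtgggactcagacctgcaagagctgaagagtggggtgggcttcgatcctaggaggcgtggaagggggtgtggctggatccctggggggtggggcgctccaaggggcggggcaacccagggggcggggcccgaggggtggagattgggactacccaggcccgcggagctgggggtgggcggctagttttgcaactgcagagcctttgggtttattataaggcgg
Cd8a: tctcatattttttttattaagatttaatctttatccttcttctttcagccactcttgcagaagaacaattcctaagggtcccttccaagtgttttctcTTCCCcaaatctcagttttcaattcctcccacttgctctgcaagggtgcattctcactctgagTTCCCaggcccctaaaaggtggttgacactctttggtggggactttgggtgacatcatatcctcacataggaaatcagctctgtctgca
Slc7a6os: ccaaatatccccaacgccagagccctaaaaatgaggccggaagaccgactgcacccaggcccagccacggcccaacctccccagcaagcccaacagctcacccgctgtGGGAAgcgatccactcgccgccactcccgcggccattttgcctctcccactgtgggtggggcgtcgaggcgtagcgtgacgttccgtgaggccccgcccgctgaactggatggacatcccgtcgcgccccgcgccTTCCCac
The windows of Clec9a and Sdc1 hold no match. That of Cd8a holds 2, whose first bases lie at -152 and -89 from the start, and that of Slc7a6os holds 2, at -142 and -7. The windows also differ in base content, with G and C making up 35.6% of that of Clec9a, 42.8% of Cd8a, 66% of Sdc1 and 67.2% of Slc7a6os. A match is a run of letters and does not show binding.

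The Ikaros family itself did not pass. Ikzf1 was at 175.8 and 141.1 RPKM in wt against 182.2 and 182.1 in dF1 (0.21, 95% interval -0.17 to 0.59, limma adjusted p = 0.879), a value that covers the whole transcript and does not check the loss of a single finger. Ikzf3 (Aiolos) was at 55.9 and 29.1 RPKM in wt against 51.3 and 45.3 in dF1 (0.25, interval -0.41 to 0.91), and its direction turned without wt replicate 2 (-0.21). Ikzf2 (Helios) was at 5.3 and 5.7 RPKM in wt against 6.6 and 4.2 in dF1 (-0.05, interval -0.57 to 0.48), and its direction turned without dF1 replicate 2 (0.23). Ikzf4 and Ikzf5 were below the limit. Of 17 NuRD and other corepressor genes, limma called 0, with 0 at an unadjusted p under 0.05, and their median difference was 0.08. Hdac1, a histone deacetylase of NuRD, was at 7.8 and 5.1 RPKM in wt against 8.5 and 8.4 in dF1, and Smarca4, the motor of the SWI/SNF remodeller, at 79.6 and 72.4 in wt against 63.9 and 72 in dF1. Of 29 other transcription factors of blood cells limma also called 0 (2 higher and 3 lower at an unadjusted p under 0.05), among them Myc, at 16.6 and 8.5 RPKM in wt against 21.7 and 25.5 in dF1, and Myb, a factor of progenitors, at 59 and 65.2 in wt against 46.4 and 42.9 in dF1. Tox, counted among the 3 lower, had a dF1 mean of 3.5 RPKM, so it was above the limit only through its wt level.

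Gene lists were set beside the median of all 8553 differences, 0.02, as a description. Over all 8553, limma gave 3.6% higher and 3.52% lower at an unadjusted p under 0.05. In all, 34 lists held 576 genes, of which 414 were above the limit, and 2 of these were called higher and 7 lower. The early B lineage list had 23 genes above the limit, with 1 called lower (Blk), 16 below 0 (45% of all transcripts) and a median of -0.30. Its genes did not share a direction. Bst1 (3.2 and 4 RPKM in dF1), Cplx2 (5 and 4.8) and Cnn3 (3.6 and 5.6) were below 0. These were above the limit only through their wt level. Cd79a and Cd79b, the signalling chains of the B cell receptor, were at 28.2 and 12.7 and at 85.1 and 59.6 RPKM in wt, and at 31.4 and 34.8 and at 90.3 and 108 in dF1, above wt in both cases. Igll1, part of the surrogate light chain of the pre-B cell receptor, was at 88.3 and 40.3 RPKM in wt against 35.3 and 39.6 in dF1, so that both dF1 libraries lay just below the lower wt library. Vpreb3 overlapped, at 82.6 and 28.2 RPKM in wt against 53 and 47.9 in dF1. The list median was 0.10 without wt replicate 1 and -0.53 without wt replicate 2. Of 19 Src family and B cell receptor signalling genes, 1 (Blk) was called lower, 14 were below 0 (45% of all transcripts) and the median was -0.19. That median was -0.12 without wt replicate 1 and -0.05 without wt replicate 2. It was -0.07 without dF1 replicate 1 and -0.14 without dF1 replicate 2.

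Of the 11 mature B and plasma cell genes above the limit, 2 were called lower (Sdc1 and Mzb1), and the median was -0.01. Other genes of antibody-secreting cells did not share their order. Xbp1, a factor of secretory cells, overlapped at 218.5 and 147.1 RPKM in wt against 185.9 and 174.7 in dF1, and Igj, the joining chain of polymeric antibodies, was at 132.1 and 7.3 in wt against 21.2 and 10.5 in dF1. The high Igj value was that of wt replicate 1 alone. Over 20 genes of the secretory pathway limma called 0 (0 higher and 1 lower at an unadjusted p under 0.05), and the median was -0.02.

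No gene on the lists of progenitor genes and cytokine receptors was called. Of 13 lymphoid progenitor genes limma called 0 (1 higher and 2 lower at an unadjusted p under 0.05) and the median was -0.11. Ly6d, a surface marker of B-biased progenitors that is also high in pDCs, was at 913.1 and 1179 RPKM in wt against 488.3 and 580.7 in dF1 (-0.96, limma adjusted p = 0.195). Both dF1 libraries lay far below both wt libraries. Il7r, the receptor for interleukin 7 on lymphoid progenitors, was at 99.3 and 85.9 RPKM in wt against 73 and 73.5 in dF1 (-0.33, limma adjusted p = 0.705). Ly6a, which encodes the stem cell antigen Sca-1 and is also raised by interferon, was at 146.1 and 105.5 RPKM in wt against 67.2 and 28.1 in dF1 (-1.49, limma adjusted p = 0.355), and the dF1 libraries differed widely. Of 19 cytokine receptors limma called 0 (0 higher and 5 lower at an unadjusted p under 0.05), 9 had both dF1 libraries below both wt libraries (16.8% of all transcripts), and the median was -0.20. Il6ra, a receptor for interleukin 6, had the smallest p of the list, at 19.2 and 18.5 RPKM in wt against 10.6 and 11.8 in dF1 (-0.70, limma adjusted p = 0.176). Kit, counted as lower on the lymphoid progenitor and cytokine receptor lists, had a dF1 mean of 4.2 RPKM. It was therefore above the limit only through its wt level. Tfrc, the transferrin receptor of dividing cells and red cell precursors, was at 111.5 and 152.6 RPKM in wt against 65.3 and 66.9 in dF1 (-0.97, limma adjusted p = 0.145).

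The pDC list, the largest of the marker lists by summed RPKM, held no called gene; Mzb1 and Clec9a, which pDCs also make, are not on it. Of 23 above the limit limma called 0 (1 higher and 4 lower at an unadjusted p under 0.05). Differences were below 0 for 15 (45% of all transcripts) and the median was -0.11. Runx2, a factor that lets pDCs leave the marrow, was at 166.9 and 250.2 RPKM in wt against 145.7 and 158.5 in dF1, and Ptprs, a phosphatase of the pDC surface, at 96.3 and 129.6 in wt against 78 and 75.7 in dF1. Both lay below wt in both dF1 libraries without passing. Bst2, Irf8 and Spib overlapped between groups, with Irf8 at 1190.3 and 1317.2 RPKM in wt against 1019.5 and 1359.5 in dF1. Among 12 conventional dendritic cell genes, Clec9a was called lower and Cd8a higher, and the median was 0.00. Of 10 MHC class II genes limma called 0 (1 higher and 0 lower at an unadjusted p under 0.05), and H2-Aa was at 406 and 325.7 RPKM in wt against 562.7 and 443.4 in dF1.

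The 23 NK cell genes above the limit had a median of 0.51, and limma called 0 (4 higher and 2 lower at an unadjusted p under 0.05). The median depended on wt replicate 2, in which the NK markers were lowest. It was 1.04 without wt replicate 1 and -0.02 without wt replicate 2. Within the NK genes, the receptor families differed in sign. The 12 Ly49 receptor transcripts above the limit (Klra genes, inhibitory and activating receptors for MHC class I) had differences below 0 (45% of all transcripts). Of these, 10 had both dF1 libraries below both wt libraries (16.8% of all), and the median was -1.06. The Ly49 transcripts may share reads, so the 12 may not be separate measurements. The dF1 mean of Klra18, Klra15, Klra1, Klra8 and Klra14 was below 5 RPKM, so these were compared only because their wt level was high. The 11 transcripts of the other killer lectin-like receptors (Klrb1, Klrc, Klrd, Klre, Klrg, Klri and Klrk) had differences above 0 (54.9% of all). Of these, 5 had both dF1 libraries above both wt libraries (17.9% of all), and the median was 0.79. Klrg1, at a wt mean of 3 RPKM, was above the limit only through its dF1 level. Limma called 0 in both families (0 higher and 10 lower for Ly49 and 3 higher and 0 lower for the others at an unadjusted p under 0.05). Over all transcripts, 3.6% were higher and 3.52% lower at that p. Both families were picked after their values were seen, as was the choice to recompute them without each library.

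The Ly49 transcripts summed to 419.3 and 208.1 RPKM in wt against 164.6 and 130.6 in dF1, and the other killer lectin-like receptors to 785.1 and 328.3 in wt against 765.5 and 635.8 in dF1. The Ly49 sum was thus lower in both dF1 libraries even than in wt replicate 2, where the other receptors were lowest. Without wt replicate 2 the Ly49 median was -1.60 with 12 of 12 below 0, and without wt replicate 1 it was -0.54 with 11 of 12 below 0. The median of the other receptors was 0.01 without wt replicate 2, with 6 above and 5 below 0. Klra18 was at 23.3 and 8.7 RPKM in wt against 4.1 and 3.1 in dF1 (-1.75, limma adjusted p = 0.256). Klrb1b, an inhibitory receptor of the NKR-P1 family, was at 17 and 5 RPKM in wt against 37.6 and 34.3 in dF1 (1.83, limma adjusted p = 0.33). The Ly49 genes are near copies of each other and how reads were shared among them is not known. The same reads may stand in several of the 12 transcripts, so the counts of transcripts, the sum and the single values are all uncertain.

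**Figure D4:**
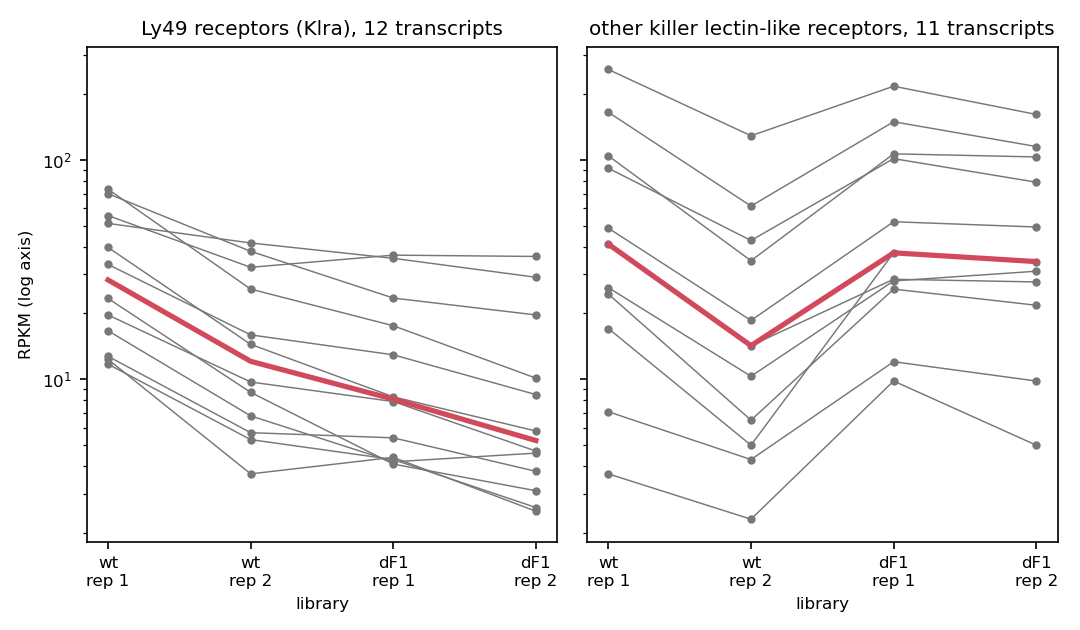
RPKM (log axis) of the 12 Ly49 transcripts (left) and the 11 other killer lectin-like receptor transcripts (right) in each library, 1 grey line per transcript, with the median in red. The lines join values of 1 transcript and show no order in time. On the left the dF1 libraries are lowest, with a summed 164.6 and 130.6 RPKM, and on the right wt replicate 2 is lowest, with 328.3.

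Granzymes, the killing proteases of NK and T cells, were higher in both dF1 libraries than in both wt libraries for the 3 genes above the limit, without a call (0 called by limma, 2 at an unadjusted p under 0.05). Over all transcripts this order held for 17.9%, and Gzmk, at a wt mean of 3.85 RPKM, was above the limit only through its dF1 level. Gzma was at 356.2 and 195.5 RPKM in wt against 634.1 and 504.2 in dF1 (1.10, limma adjusted p = 0.396), Gzmk at 5.3 and 2.4 in wt against 18.8 and 10.4 in dF1 (1.70, limma adjusted p = 0.202) and Gzmb at 44.9 and 22.4 in wt against 53.8 and 47.7 in dF1. Perforin (Prf1), which acts with them, overlapped at 75.1 and 39 RPKM in wt against 56.7 and 56.6 in dF1. Of the 16 T cell genes above the limit, 1 was called higher (Cd8a) and 15 were above 0 (54.9% of all transcripts). For 9, both dF1 libraries lay above both wt libraries (17.9% of all), and the median was 0.49. Without wt replicate 2 the T cell median was 0.06. Cd3e, a chain of the T cell receptor complex, was at 13.9 and 12.6 RPKM in wt against 20.8 and 19.5 in dF1 (0.57, limma adjusted p = 0.331), and Lck overlapped at 148.6 and 83.4 in wt against 158.1 and 136.5 in dF1.

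Neutrophil genes varied between replicates more than between groups. Of 16 above the limit limma called 0 (3 higher and 0 lower at an unadjusted p under 0.05). The list median was -0.71, against 1.05 for replicate 2 over replicate 1 in wt and 1.89 in dF1, and it was 0.41 without dF1 replicate 1 and -1.62 without dF1 replicate 2. Ngp, a granule protein, was at 54.3 and 202.7 RPKM in wt against 24.4 and 105.7 in dF1. Ctsg, a protease of immature neutrophils, was at 3.4 and 4.2 RPKM in wt against 7.4 and 12.5 in dF1 (1.15, limma adjusted p = 0.237). Its wt mean was 3.8 RPKM, so it was above the limit only through its dF1 level.

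Interferon response genes were above wt mainly in dF1 replicate 1. Of 22 above the limit limma called 0, with 10 higher (3.6% of all transcripts) and 0 lower (3.52%) at an unadjusted p under 0.05. For 10, both dF1 libraries lay above both wt libraries (17.9% of all), and the median was 0.45. The median of dF1 minus wt was 0.68 over the libraries numbered 1 and 0.04 over those numbered 2, and the list median was 0.15 without dF1 replicate 1 and 0.82 without dF1 replicate 2. Ifit2, which blocks translation of viral RNA, was at 9.3 and 9.2 RPKM in wt against 26.8 and 16.4 in dF1 (1.10, limma adjusted p = 0.195). Irf7, the factor that drives interferon genes in pDCs, was at 133.3 and 170.4 RPKM in wt against 340.4 and 205.6 in dF1 (0.81, limma adjusted p = 0.531). For both, dF1 replicate 1 was the highest library. Stat2 and Irf9, which carry the interferon signal, overlapped between groups. Oas3, counted among the 10 higher, had a wt mean of 3.5 RPKM, so it was above the limit only through its dF1 level.

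Of 21 mitosis genes limma called 0 (0 higher and 2 lower at an unadjusted p under 0.05), while 20 were below 0 (45% of all transcripts) and 10 had both dF1 libraries below both wt libraries (16.8% of all). The median, -0.27, was -0.11 without dF1 replicate 1. Birc5 (survivin) was at 25 and 20.7 RPKM in wt against 17.7 and 17.6 in dF1, and Mki67 overlapped at 65.2 and 51.1 in wt against 48 and 54.3 in dF1. The 22 DNA replication genes, with 0 called and 0 at an unadjusted p under 0.05 by limma, had a median of -0.02. Immediate early genes varied strongly between replicates. Fos was at 59.5 and 19.9 RPKM in wt against 12.9 and 2.7 in dF1 and Jun at 28.1 and 13.5 in wt against 9.8 and 2.6 in dF1, both below wt in both dF1 libraries (limma adjusted p = 0.488 and 0.512). The 12 genes of that list had a median of -0.12 and limma called 0 (0 higher and 3 lower at an unadjusted p under 0.05). Dusp1, counted among the 3 lower, had a dF1 mean of 4.15 RPKM, so it was above the limit only through its wt level.

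Of 12 glycolysis genes, 1 was called higher (Pgam2), 8 had both dF1 libraries above both wt libraries (17.9% of all transcripts) and the median was 0.28, which was 0.07 without wt replicate 2. Aldoc, an aldolase, was at 6.2 and 6.3 RPKM in wt against 12.2 and 11.6 in dF1 (0.83, limma adjusted p = 0.136), whereas the muscle forms Eno3 (11.3 and 11.9 in wt, 8.5 and 7.2 in dF1) and Pfkm (6.6 and 7.7 in wt, 4.2 and 5 in dF1) were below wt in both dF1 libraries. The dF1 mean of Pfkm was 4.6 RPKM, so it was compared only because its wt level was high. Gapdh, Pgam1 and Eno1 were at 0.5 RPKM or less and were not compared. How near copies of a gene shared reads is not given, so these values were not taken to mean that the genes are silent. The 22 integrin and focal adhesion genes had a median of 0.12, with Tns1 called lower. Its relative Tns3 was at 18.1 and 19.3 RPKM in wt against 10.8 and 13.1 in dF1 (-0.61, limma adjusted p = 0.35), and Actn1, an actin cross-linker, lay above wt at 10.7 and 10.8 in wt against 18.2 and 21.8 in dF1 (0.83, limma adjusted p = 0.136). Of the 17 phosphoinositide enzymes Inppl1 was called lower and the median was 0.03. Inpp5d, which encodes its blood cell relative SHIP1, was at 113 and 99.5 RPKM in wt against 117.5 and 141 in dF1.

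**Figure D5:**
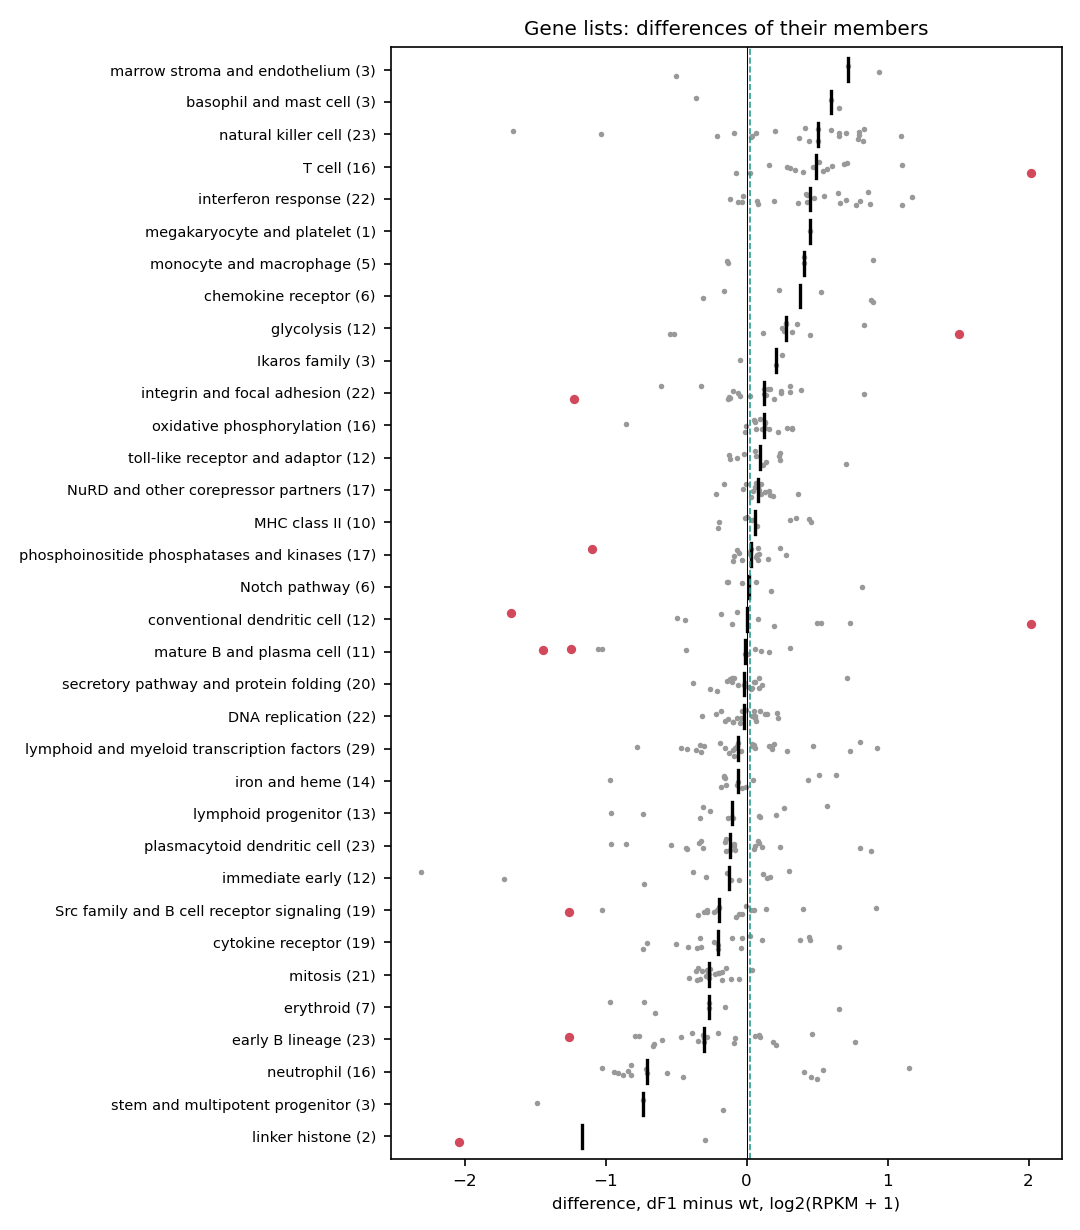
Differences (dF1 minus wt, log2(RPKM + 1)) of the genes of the 34 lists, 1 point per gene with called genes in red, the list median as a black bar and the median of all 8553 transcripts as a dashed line; the number of genes is in brackets. Most medians lie within 0.5 of 0, and those of the interferon, NK cell and T cell lists (0.45, 0.51 and 0.49) and of the neutrophil list (-0.71) shifted with a single library.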

How the data were processed

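Transcript levels were taken from the authors' deposited table of RPKM per RefSeq transcript, written to 1 decimal, for 2 wt and 2 dF1 libraries made from mRNA with Illumina TruSeq per the labels' protocols. TopHat, bedtools and the mouse build mm9 are named, without versions, per the submitters' processing notes; whether counting used strand, and how near copies shared reads, is not given here. RPKM are not counts and depth could not be recovered, so no count model was used. Differences were computed on log2(RPKM + 1), which understates changes of low transcripts, and tested with limma 3.58.1 (lmFit, eBayes with trend) and Benjamini-Hochberg adjustment, after a test on simulated data. The table gave no position, and 1 line naming no gene was left out.

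Samples were grouped by their titles. The members, the lists, the tests and the naming rule were all chosen with earlier results of these data known. The rule named the Ikaros family, up to 15 genes in each direction (those called, then those of smallest p whose groups did not overlap), up to 4 genes of smallest p from each list, and Xist and Y-linked genes. Other list members, and genes of the families of receptors, lectins and granzymes, were named after their values were seen. A few genes are not reported here. A list took each gene by its transcript of highest mean. Promoters are from RefSeq (GRCm38.p6). Alternatives were other pseudocounts, filters, scalings and variance models, a replicate block, 1 transcript per symbol and leaving out each library. The lists cover the Ikaros family, its partners, blood transcription factors, stages and lineages of blood and marrow, interferon, mitosis, replication, immediate early, Notch, adhesion, phosphoinositide, B cell receptor, chemokine, cytokine, Toll-like receptor, iron, histone, secretory and metabolic genes.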

Additional observations from a re-analysis of the deposited data

How the results depend on the processing

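Against 14 transcripts called higher and 13 lower, limma called 0 and 0 with a mean of at least 1 RPKM (876 at an unadjusted p under 0.05) and 0 and 0 after median centring (665), 2 and 2 after quantile normalization, 93 and 152 with no filter (4 of the 27 among them) and 23 and 18 with robust variances (24 of the 27). With a pseudocount of 0.1 or 5, a mean of at least 10, no trend or 1 transcript per symbol, 21 to 27 were called. Leaving out a library left 0 to 1 called higher and 0 to 1 lower. The counts of transcripts apart by at least 1, 39 and 39, were 17 and 18 with a pseudocount of 5, 74 and 84 with a mean of at least 1, 21 and 27 with at least 10, 77 and 88 with no filter, and 30 to 161 higher and 44 to 70 lower without a library. With the replicate block, 65 were called higher and 61 lower, with all 27 among them. The replicate numbers are shared by name only. As a check of pairing, the difference between replicates 1 and 2 in wt was set against that in dF1 (r = 0.282 over the 8553 transcripts), and with only 2 pairs this was not taken as pairing. Of 2034 pairs of a named gene and an alternative, 1786 kept direction and side of the threshold, 197 lost a call, 36 gained one and 15 turned direction, in each case without 1 library. Over the libraries left out, the differences of these genes ran from -0.80 to 0.083 for Ccl3, -0.21 to 0.71 for Ikzf3, -0.32 to 0.23 for Ikzf2, -0.0051 to 0.34 for Ctbp1, -0.30 to 0.030 for Cd68, -1.54 to 0.24 for Alas2, -0.089 to 0.96 for Ftl1, -0.091 to 1.52 for Sec61b, -1.79 to 0.034 for Lyz2, -0.30 to 8.9e-05 for Fech, -0.37 to 0.00071 for Gins2, 0 to 5.27 for Eif2s3y and -6.35 to 0.21 for Xist. Of 408 list medians, 49 moved by more than the spread between replicates. Read depth is unknown, so counting error could not be set beside the spread between replicates, and fits of 2 libraries against 1 take the spread from the group of 2. The cause of these changes between settings was not tested.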

Other observations

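Beside the called genes, further genes had both dF1 libraries at least 1 apart on the log2 scale from wt on average and no overlap between groups, and none of the following passed limma's test with Benjamini-Hochberg adjustment. They were picked after their values were seen. On the higher side, Eif4ebp1, a brake on translation, was at 5.3 and 5.8 RPKM in wt against 11.7 and 15.8 in dF1, and Slc16a1, a lactate transporter, at 3.7 and 2.8 in wt against 8.2 and 7.3 in dF1. Slamf9, a receptor of the SLAM family made in pDCs, was at 53.9 and 32.6 RPKM in wt against 103 and 76.1 in dF1. Apod, a lipid carrier, was at 2.1 and 3.4 RPKM in wt against 17.5 and 8.1 in dF1. These genes were low apart from Slamf9, and in wt several lay below the 5 RPKM that the mean had to reach.

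On the lower side, Cfp, which encodes the complement factor properdin, was the most abundant of those named here, at 73.8 and 98.5 RPKM in wt against 29.6 and 51.3 in dF1. The paired membrane proteins Tmem176a and Tmem176b, which are neighbours in the genome, were at 18.6 and 21.6 and at 27.8 and 26.2 RPKM in wt and at 7.5 and 10.2 and at 8 and 15 in dF1. Hdac9, a class II histone deacetylase, was at 16.4 and 19 RPKM in wt against 9.8 and 6.6 in dF1. Wls, which carries Wnt proteins to the cell surface, was at 10.1 and 6.8 RPKM in wt against 1.6 and 3.4 in dF1. Its dF1 mean was 2.5 RPKM, so it was compared only because its wt level was high. Lynx1, a relative of the Ly6 proteins, was at 26.1 and 37.1 RPKM in wt against 13 and 15.6 in dF1, and Marcks, a protein of the cell cortex, at 13.4 and 18.7 in wt against 7.3 and 6.1 in dF1.

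The lists not described so far held 1 to 16 genes above the limit, and limma called 0 in each except the linker histones. Of 16 oxidative phosphorylation genes (0 higher and 1 lower at an unadjusted p under 0.05) the median difference was 0.12, of 12 Toll-like receptor and adaptor genes (1 and 0) 0.09, of 6 Notch pathway genes (1 and 0) 0.02, and of 14 iron and heme genes (2 and 1) -0.06. Slc11a2 and Hmox1, the 2 iron and heme genes higher at that p, had wt means of 4.95 and 4.15 RPKM. Both were above the limit only through their dF1 level. Tlr9, the receptor by which pDCs sense DNA, was at 76.3 and 85.2 RPKM in wt against 93.1 and 97.2 in dF1. Of 6 chemokine receptors (2 and 0) the median was 0.38, and 0.06 without wt replicate 2. Cxcr3, a receptor for interferon-induced chemokines, was at 89.4 and 66.1 RPKM in wt against 130.9 and 155.2 in dF1, whereas Ccr9, which guides pDCs to the gut, was at 132.5 and 128.4 in wt against 104.1 and 105.6 in dF1. Neither passed (limma adjusted p = 0.218 and 0.704). Lists of other cell types had few genes above the limit. The medians were 0.41 for 5 monocyte genes (0 and 0), 0.60 for 3 basophil and mast cell genes (0 and 0), which are also genes of NK cells, and 0.45 for the 1 megakaryocyte gene, Cd9 (0 and 0). They were -0.27 for 7 erythroid genes (1 and 1), 0.72 for 3 genes of marrow stroma and endothelium (2 and 1) and -0.73 for 3 stem cell genes (0 and 2). The erythroid median was 0.43 without dF1 replicate 1 and -0.97 without dF1 replicate 2. For the 2 linker histones, of which H1f0 was called lower, the median was -1.17.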
